A study of Homo sapiens with 32 samples.

Results

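The nuclear genes that encode subunits of oxidative phosphorylation were followed through 32 RNA-seq libraries of human cancer cells. They were taken by gene symbol, as the NDUFA, NDUFB, NDUFC, NDUFS and NDUFV genes, SDHA to SDHD, the UQCR genes and CYC1, the COX4 to COX8 genes with a letter after the number, and the ATP5 genes. The choice found 86 genes among the 18854 genes to which transcripts could be matched, namely 37 for complex I, 4 for complex II, 10 for complex III, 15 for complex IV and 20 for complex V. The symbols are those of the current RefSeq table, in which NDUFA4 and NDUFA4L2 are named COXFA4 and COXFA4L2, so these, COX4I1 and NDUFAB1 are outside the 86 and are given separately.

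The cells were 4 lines, of which A375 derives from a melanoma, DLD1 from a colorectal carcinoma, and Cal51 and MDA-MB-231 from breast carcinomas. Each was grown as cells with a G579S mutation, which the study's design calls resistant to inhibition of the kinase CDK11, and as wild-type cells, which it calls sensitive. The treatments were OTS964, a small-molecule CDK11 inhibitor, at 100 nM for 6 h, or the solvent DMSO, with 2 libraries in each of the 16 groups. All cells were kept in DMEM with 10% serum. G579S changes a single residue, which gene-level reads cannot show. The level of CDK11B, which shares reads with CDK11A, was 504.2 to 617.1 TPM in the 4 MDA-MB-231 G579S libraries, against 25.85 to 45.51 TPM in the 4 MDA-MB-231 wild-type ones, and between 13.45 and 38.12 TPM in the other lines, so the MDA-MB-231 genotypes differed in the level of the kinase as well. The labels do not say whether a G579S line is a single clone or whether the 2 libraries came from separate cultures, so p-values measure only the spread between these libraries, which may be technical.

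As background, complexes I to IV pass electrons from NADH and succinate to oxygen and pump protons out of the mitochondrial matrix, and complex V, the ATP synthase, uses the returning protons to make ATP. Complex II pumps no protons and has only nuclear-encoded subunits, while the other complexes join nuclear-encoded subunits with a few encoded by mitochondrial DNA. The nuclear genes are transcribed under factors such as NRF1, the ETS-family factor GABPA and YY1, with coactivators of the PGC-1 family, and their mRNAs are mostly short and abundant.

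A library held between 16091376 and 29742687 estimated reads, and no library was identical to another. The libraries labelled DLD1 wild-type stood apart from their label: 7 of 10 colorectal epithelial markers passed 1 TPM in some library both there and in DLD1 G579S cells, with CDX1 at 0 in both, but their summed level was 11770 to 13550 TPM in the 4 libraries of DLD1 G579S cells, against 671.5 to 857.7 TPM in the 4 labelled DLD1 wild-type. The summed level of 10 melanocyte markers was 37.52 to 47.38 TPM in DLD1 G579S libraries, against 1208 to 1414 TPM in those labelled DLD1 wild-type, where TYR and DCT were at 0, and A375 wild-type libraries held 635.5 to 935.5 TPM of it. These 4 libraries are called labelled DLD1 below, and the main counts that use them are also given without them. In Cal51 G579S under DMSO, replicate 2 differed from replicate 1 by a median of 0.68 (log2) over the 86 genes, and results that rest on it are given without it as well. In MDA-MB-231 wild-type cells under OTS964 the replicates differed by a median of 0.31.

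The 86 genes took between 0.68% and 1.549% of the reads matched to genes in a library. Their share averaged 1.28% ± 0.153 in wild-type OTS964 libraries and 0.919% ± 0.122 in wild-type DMSO libraries (SD, n = 8 each). In A375 the share was 1.352% and 1.348% in wild-type OTS964 libraries, against 1.01% and 1.002% under DMSO. In Cal51 it was 1.409% and 1.402% in wild-type OTS964 libraries, against 0.998% and 0.995% under DMSO. The libraries labelled DLD1 wild-type held 1.369% and 1.273% under OTS964, against 0.933% and 0.961% under DMSO. In MDA-MB-231, the line with the lowest share, wild-type OTS964 libraries held 1.103% and 0.99%, against 0.728% and 0.722% under DMSO. The wild-type OTS964 and DMSO libraries did not overlap in any of the 4 lines.

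In G579S cells the share averaged 0.980% ± 0.14 under OTS964 and 1.00% ± 0.274 under DMSO (SD, n = 8 each). The treatments overlapped in A375, at 1.172% and 1.045% under OTS964 against 1.064% and 1.056% under DMSO. In Cal51 both OTS964 libraries, at 1.045% and 1.083%, lay below the DMSO libraries, at 1.103% and 1.549%, the last of which is the replicate that stands apart. In DLD1 the OTS964 libraries held 0.982% and 0.957%, against 0.929% and 0.957% under DMSO, so they met at 1 value. In MDA-MB-231 both OTS964 libraries, at 0.773% and 0.784%, lay above the DMSO libraries, at 0.68% and 0.69%.

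**Figure D1:**
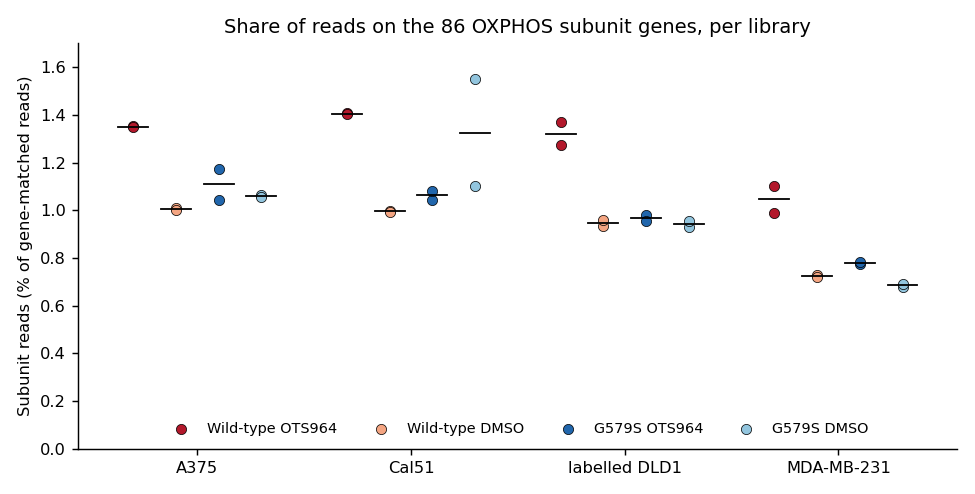
Percent of gene-matched reads on the 86 subunit genes (vertical axis) in each library, by cell line, with 1 point per library and a bar at the mean of the 2 libraries of a group. Wild-type OTS964 libraries, between 0.99% and 1.409%, lie above the DMSO libraries of the same line in all 4 lines, and the Cal51 G579S DMSO library at 1.549% lies apart from its replicate at 1.103%.

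By TPM, a level scaled to transcript length and library total, complex V and complex I subunit mRNAs made up most of the sum. In wild-type OTS964 libraries complex V took 33.2% ± 1.6 of the subunit TPM, complex I 30.0% ± 1.41, complex IV 25.2% ± 1.86, complex III 9.91% ± 1.36 and complex II 1.68% ± 0.254 (SD, n = 8). The corresponding shares in wild-type DMSO libraries were 33.1% ± 1.26 for complex V, 30.4% ± 0.729 for complex I, 24.1% ± 1.6 for complex IV, 10.4% ± 1.32 for complex III and 2.02% ± 0.24 for complex II, so the shares of complexes I, III, IV and V differed between treatments by less than 1 SD and that of complex II by more. Complex II reached 513 ± 28.9 TPM in wild-type OTS964 libraries and 509 ± 15.6 TPM in wild-type DMSO libraries. Complex IV reached 7787 ± 556 TPM in wild-type OTS964 libraries and 6105 ± 376 TPM in wild-type DMSO libraries (SD, n = 8 each). The highest mean levels over all 32 libraries were those of COX7C, a small complex IV subunit (1650 TPM), ATP5F1E, the epsilon subunit of the ATP synthase (1482 TPM), and COX8A (1466 TPM).

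In wild-type cells nearly the whole set was higher with OTS964, relative to the average gene. After TMM scaling, 75 of the 80 subunit genes with enough reads to test were higher with OTS964 and 1 was lower by edgeR's quasi-likelihood test at an adjusted p of 0.05, where 29.3% of all 13815 genes tested were higher and 32% lower. The median log2 fold change was 1.08 over the subunit genes and -0.07 over all genes tested. By complex the medians were 1.04 for complex I (34 of 37 higher, 1 lower), 0.83 for complex II (4 of 4 higher), 1.03 for complex III (10 of 10), 1.17 for complex IV (10 of 11) and 1.09 for complex V (17 of 18). The 6 genes left out for low counts were COX6A2, COX6B2, COX7A1, COX8C, ATP5MGL and the readthrough gene ATP5MF-PTCD1. Of the marker lists of other cell types, 5 of 7 tested colorectal epithelial genes (median 1.01) and 5 of 6 mesenchymal genes (median 0.77) were also higher with OTS964 and 0 lower, 2 of 7 melanocyte genes were higher and 2 lower, and 1 of 5 breast epithelial genes was higher and 1 lower; their part in the result was not tested. In bulk RNA a change in the cells' makeup and a change in RNA per cell cannot be told apart.

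The size of the rise depends on what the reads are scaled to. TMM factors averaged 0.771 ± 0.05 in wild-type OTS964 and 1.117 ± 0.025 in wild-type DMSO libraries (SD, n = 8 each). With library totals in place of TMM the median of all genes moved to -0.65 and that of the subunit genes to 0.50, with 68 higher and 2 lower, where 14.1% of 13676 genes were higher and 6801 genes lower. On log2(TPM + 1) with limma the medians were -0.51 for all genes and 0.22 for the subunit genes, with 50 higher and 6 lower, where 8% of genes were higher and 8295 genes lower. The subunit genes lay above the median of all genes by 1.15 with TMM and with library totals, and by 0.73 in TPM. Every change below is after TMM scaling, and a gene whose direction turned under either of the other scalings is named with that value.

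**Figure D2:**
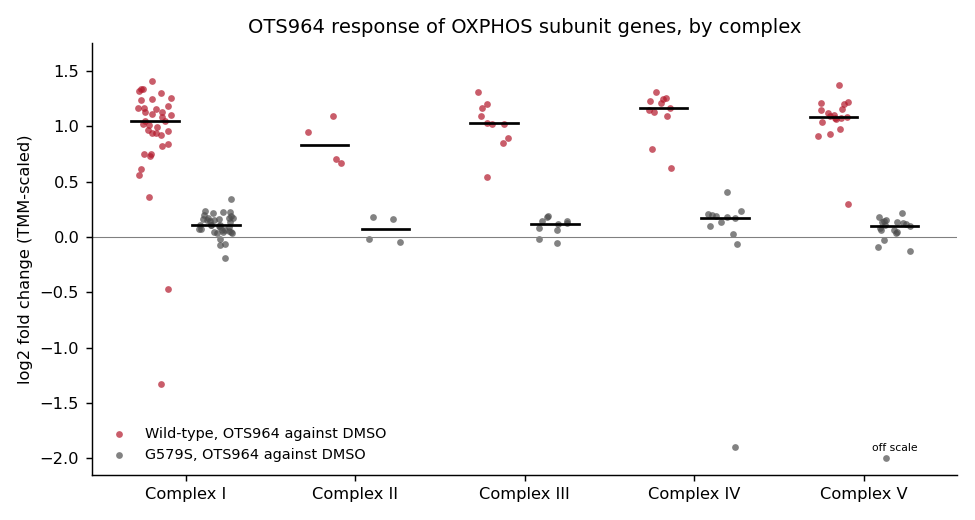
log2 fold change with OTS964 against DMSO (vertical axis, TMM-scaled) of each tested subunit gene, by complex, in wild-type cells (red, left) and in G579S cells (grey, right), with a black bar at the median. Wild-type medians lie between 0.83 and 1.17 and G579S medians between 0.07 and 0.18, and the point marked off scale is the readthrough gene ATP5MF-PTCD1 at -2.98 in G579S cells.

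Complex I takes electrons from NADH through the flavoprotein subunit NDUFV1 and iron-sulfur subunits that include NDUFS1 and NDUFV2. NDUFV1 lay between 222.3 and 342.2 CPM (counts scaled to the TMM-adjusted library size; median 294.9) in the 8 wild-type OTS964 libraries, against 126.1 to 165.7 CPM (median 142.6) in the 8 wild-type DMSO libraries, which did not overlap. It rose by 1.09 ± 0.08 (log2, SE; adjusted p = 3.6e-08). NDUFS1 rose by 0.62 ± 0.08 (adjusted p = 5.6e-06), with 123.9 to 155.7 CPM in wild-type OTS964 libraries against 90.76 to 106.4 CPM under DMSO, but was lower in TPM (-0.22, adjusted p = 0.014). NDUFV2 rose by 0.36 ± 0.12 (adjusted p = 0.018) and was lower with library totals (-0.22, adjusted p = 0.21) and in TPM (-0.49, adjusted p = 0.0067).

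The largest rise of any subunit gene was that of NDUFB3, an accessory subunit in the membrane arm of complex I. It was at 59.16 and 60.45 CPM in A375 wild-type OTS964 libraries against 24.23 and 24 CPM under DMSO, and at 111.3 and 115.8 CPM in Cal51 wild-type OTS964 libraries against 33.93 and 40.27 CPM under DMSO. In the libraries labelled DLD1 it was at 74.32 and 57.37 CPM with OTS964 against 25.95 and 24.45 CPM with DMSO, and in wild-type MDA-MB-231 cells at 51.6 and 48.15 CPM with OTS964 against 21.54 and 23.3 CPM with DMSO. The log2 fold change was 1.41 ± 0.10 (adjusted p = 2.5e-08), and no OTS964 library overlapped a DMSO library. The most abundant complex I mRNAs, NDUFA13 and NDUFS5, rose by 1.34 ± 0.10 and 1.34 ± 0.08 (adjusted p = 3.9e-08 and 9.1e-09).

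Complex II is succinate dehydrogenase, shared with the citric acid cycle, with the flavoprotein SDHA, the iron-sulfur protein SDHB and the membrane anchors SDHC and SDHD. SDHC rose by 1.10 ± 0.06 (adjusted p = 6.4e-09) and SDHB by 0.95 ± 0.07 (adjusted p = 2.2e-08). SDHA rose by 0.71 ± 0.07 and SDHD by 0.67 ± 0.07 (adjusted p = 5.2e-07 and 8e-07), and in TPM both were below their DMSO level (-0.14, adjusted p = 0.082, and -0.17, adjusted p = 0.013).

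In complex III, which passes electrons to cytochrome c, CYC1, the haem-bearing cytochrome c1, rose by 0.85 ± 0.06 (adjusted p = 3.9e-08). The core protein UQCRC1 rose by 1.02 ± 0.07 (adjusted p = 1.3e-08) and the small subunit UQCRQ by 1.31 ± 0.08 (adjusted p = 1.2e-08). UQCRFS1, the Rieske iron-sulfur protein, rose least, by 0.54 ± 0.07 (adjusted p = 1.6e-05), and was slightly below DMSO with library totals (-0.04, adjusted p = 0.64) and lower in TPM (-0.30, adjusted p = 0.00083). The hinge protein gene UQCRH rose by 1.20 ± 0.06 (adjusted p = 4.3e-09) and its near-identical copy UQCRHL by 1.17 ± 0.11 (adjusted p = 3.4e-07), and the estimate divides their shared reads.

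Complex IV reduces oxygen, and its nuclear subunits surround a core encoded by mitochondrial DNA. COX6A1 was at 447.5 and 453.1 CPM in A375 wild-type OTS964 libraries against 223 and 209.6 CPM under DMSO, and at 369.9 and 380.8 CPM in Cal51 wild-type OTS964 libraries against 132.5 and 142.8 CPM under DMSO. Its log2 fold change over the 4 lines was 1.31 ± 0.08 (adjusted p = 6.9e-09). COX5A rose by 1.17 ± 0.06 and COX5B by 1.13 ± 0.09 (adjusted p = 3.7e-09 and 4.5e-08). Several isoforms that other tissues use were near or at 0: COX6A2, the muscle isoform, was at 0 in all 32 libraries, COX8C at 0 in 31, and COX6B2, a testis isoform, reached 0.273 TPM at most. COX7A1, the muscle form of COX7A, was at 1.99 to 5.88 TPM in Cal51 G579S libraries and at most 1.67 TPM elsewhere. COX7B2 was at 3.33 to 15.08 TPM in A375 libraries and at 7.86 to 20.77 TPM in those labelled DLD1 wild-type, and at 0 in the other 20. COX7A2L, which takes part in joining complexes into supercomplexes, rose by 0.80 ± 0.08 (adjusted p = 7.3e-07) and was slightly below DMSO in TPM (-0.05, adjusted p = 0.49).

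For the ATP synthase, ATP5F1B, the catalytic beta subunit, was at 2384 and 2520 CPM in A375 wild-type OTS964 libraries against 1306 and 1280 CPM under DMSO, and at 1564 and 1334 CPM in wild-type MDA-MB-231 OTS964 libraries against 713.1 and 684.6 CPM under DMSO. Over the 4 lines it rose by 1.09 ± 0.06 (adjusted p = 3.6e-09), and no OTS964 library overlapped a DMSO library. The alpha subunit ATP5F1A rose by 0.98 ± 0.06 (adjusted p = 6e-09) and ATP5F1E by 1.38 ± 0.09 (adjusted p = 9.2e-09), the largest value in this complex. The 3 genes ATP5MC1, ATP5MC2 and ATP5MC3, which encode the same mature c subunit of the rotor ring, rose by 1.22 ± 0.07, 1.07 ± 0.08 and 1.08 ± 0.08 (adjusted p = 7.9e-09, 4.5e-08 and 4.8e-08). ATP5PB, a subunit of the peripheral stalk, was listed at only 0.469 to 4.53 TPM in wild-type OTS964 libraries and 1.71 to 4.11 TPM in wild-type DMSO libraries, and did not pass (0.30 ± 0.41, adjusted p = 0.55, turning to -0.29 with library totals and -0.45 in TPM). Others that did not pass included COX7B2 (0.63 ± 0.44, adjusted p = 0.25, turning to -0.13 in TPM) and the readthrough gene NDUFC2-KCTD14 (-0.47 ± 0.40, adjusted p = 0.33), which shares reads with NDUFC2. NDUFC2-KCTD14 was lower with library totals (-1.04, adjusted p = 0.042) and in TPM (-0.66, adjusted p = 0.00079).

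Each wild-type line showed most of the set higher. Of 82 tested, 75 subunit genes were higher with OTS964 and 1 lower in A375, where 20.6% of all genes were higher and 25.1% lower, in 1 edgeR fit of the 16 groups. In Cal51 74 were higher and 1 lower (24.6% and 27.9% of all genes), in the libraries labelled DLD1 73 and 2 (21.9% and 27.8%), and in MDA-MB-231 74 and 1 (23.7% and 22.5%). The median log2 fold changes were 0.84 in A375, 1.18 in Cal51, 1.02 in the libraries labelled DLD1 and 1.06 in MDA-MB-231. With library totals the number higher in A375 fell to 42, which is given without the share of all genes under that scaling. Over the 3 lines without the libraries labelled DLD1, 74 were higher and 1 lower, with a median of 1.05. When each line's response was set against the mean of the other 3, NDUFV3 differed in all 4 lines and was the only subunit gene to differ in A375, in the libraries labelled DLD1 and in MDA-MB-231, where 4.55%, 4.85% and 24.2% of all genes did. These 4 contrasts are not independent, since each line enters the mean for the others. They reflect a single split, with NDUFV3 falling more in A375 and the libraries labelled DLD1 than in Cal51 and MDA-MB-231. No version without the libraries labelled DLD1 is given. In Cal51 NDUFV2 (-0.75 ± 0.19, adjusted p = 0.01) and UQCRFS1 (0.44 ± 0.13, adjusted p = 0.031) differed as well, where 13.8% of all genes did. The UQCRFS1 difference no longer passed when any 1 of the 4 Cal51 wild-type libraries was left out (adjusted p between 0.057 and 0.16) or with library totals (0.23, adjusted p = 0.28). The NDUFV2 difference no longer passed without DMSO replicate 2 (adjusted p = 0.062) or OTS964 replicate 1 (adjusted p = 0.081) of that line. In MDA-MB-231 the number of subunit genes that differed depended on which wild-type OTS964 library was left out, and was 2 with library totals. The share of all genes, 24.2% in the main fit, is not given under those settings.

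The gene that fell over the 4 lines after TMM scaling was NDUFV3, a small accessory subunit next to NDUFV1 and NDUFV2 in the NADH-binding module of complex I. In TPM it was at 4.56 and 3.87 in A375 wild-type OTS964 libraries against 22.41 and 24.57 under DMSO, at 17.72 and 19.99 in Cal51 wild-type OTS964 libraries against 42.63 and 40.87 under DMSO, at 4.00 and 3.72 in libraries labelled DLD1 with OTS964 against 17.44 and 21.93 with DMSO, and at 24.82 and 20.2 in MDA-MB-231 wild-type OTS964 libraries against 35.69 and 38.91 under DMSO. Every wild-type OTS964 library lay below both DMSO libraries of its line. The log2 fold change over the 4 lines was -1.33 ± 0.23 (adjusted p = 0.00016), and it fell under all 3 scalings. Within lines it fell by 2.27 ± 0.17 in A375 and 2.21 ± 0.17 in the libraries labelled DLD1, and by 0.62 ± 0.16 in Cal51 and 0.48 ± 0.16 in MDA-MB-231 (adjusted p = 2.6e-09, 3.3e-09, 0.0028 and 0.018).

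NDUFV3 has a long and a short coding transcript, of 2130 and 1035 bases in the deposited tables, which differ by 1095 bases. That is the length of exon 3 of the gene, at chr21:42903182-42904276 on the plus strand (GRCh38, GENCODE), which the long form includes and the short form skips. The bases around both edges of the exon, and the junction that replaces them in the short form, are shown because these letters tell the forms apart, with exon 3 in capitals and the flanking exons in lower case.
long form, 5′ edge of exon 3: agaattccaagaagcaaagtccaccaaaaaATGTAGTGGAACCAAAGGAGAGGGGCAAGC
long form, 3′ edge of exon 3: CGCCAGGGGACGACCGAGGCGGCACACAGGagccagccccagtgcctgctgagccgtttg
short form, junction without exon 3: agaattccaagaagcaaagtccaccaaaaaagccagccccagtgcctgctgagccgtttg

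The long form had fewer reads with OTS964 in every wild-type line, while the short form varied between lines. The long form had 46 and 42 estimated reads in A375 wild-type OTS964 libraries against 447 and 448 under DMSO, and the short form 33 and 20 reads with OTS964 against 42 and 37. In Cal51 wild-type libraries the long form had 39 and 38 reads with OTS964 against 332 and 323 with DMSO, and the short form 148 and 168 against 223 and 205. In those labelled DLD1 the long form had 11 and 35 reads with OTS964 against 389 and 367 with DMSO, and the short form 34 and 23 against 26 and 48. In MDA-MB-231 wild-type libraries the long form had 63 and 62 reads with OTS964 against 340 and 374 with DMSO, and the short form 368 and 201 against 174 and 200. After scaling, the long form was at 1.05 to 3.89 CPM in the 8 wild-type OTS964 libraries and at 17.03 to 24.94 CPM in the 8 wild-type DMSO libraries, with no overlap. The lines with the smaller fall in the whole gene, Cal51 and MDA-MB-231, were those with more of the short form under DMSO, at 11.3 ± 0.396 and 9.17 ± 0.645 CPM, against 2.09 ± 0.0396 CPM in A375 and 1.94 ± 1.03 CPM in the libraries labelled DLD1 (SD, n = 2 each).

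In an edgeR fit of single transcripts, run after these values had been seen, the long form fell by 2.71 ± 0.23 (log2, SE; adjusted p = 5.4e-07) and the short form did not pass (0.33 ± 0.24, adjusted p = 0.32). Of the 139 subunit transcripts tested in that fit, 97 were higher and the long NDUFV3 form was the 1 lower, where 16.1% of all transcripts were higher and 18.5% lower. The share of NDUFV3 reads on the long form was lower with OTS964 by 41.25 percentage points on average over the 4 wild-type lines, in the same direction in all 4 (exact two-sided permutation test within lines, p = 0.0015, the smallest its 1296 arrangements can give). Without the libraries labelled DLD1 it was lower by 38.77 points (exact p = 0.0093 over 216 arrangements, again the smallest). The permutation test was also run after these values had been seen, on replicates whose spread may be technical. Its p-values therefore add no independent support to the difference in share. In G579S cells the share moved by 3.32 points (exact p = 0.31) and the long form by -0.13 ± 0.09 (adjusted p = 0.59). By the same permutation test the short form moved by -0.42 (log2 CPM, exact p = 0.011) in G579S cells and by 0.38 (exact p = 0.071) in wild-type cells. In Cal51 G579S cells under DMSO the short form was at 10.6 CPM in replicate 1 and 21.94 CPM in replicate 2, which stands apart. The planned test of transcript usage over all genes, edgeR's diffSpliceDGE with the Simes method, did not pass for NDUFV3 (adjusted p = 0.17). Short reads that span neither edge of exon 3 cannot tell the forms apart outside that exon, so the short form's level rests on the estimate more than the long form's does.

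**Figure D3:**
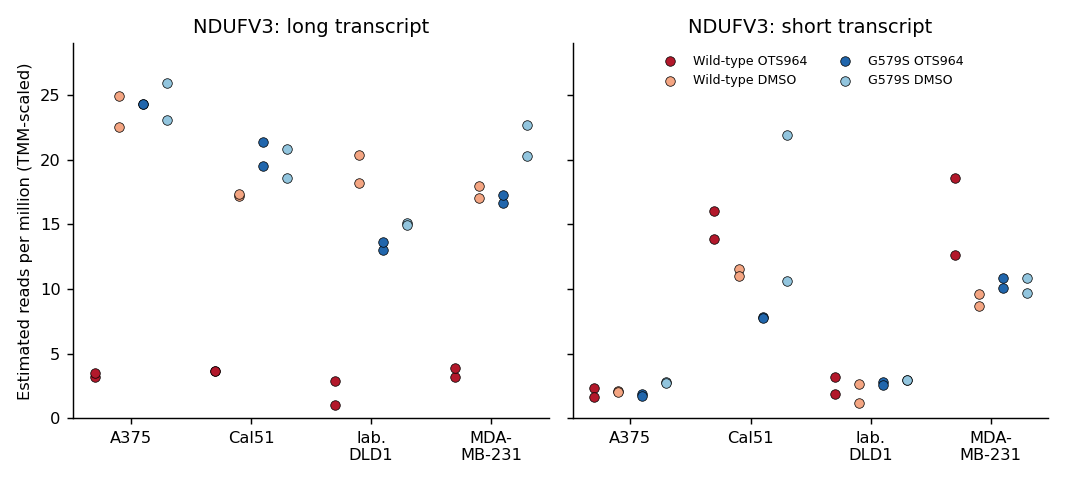
CPM from estimated reads (vertical axis, TMM-scaled) on the long transcript of NDUFV3, which includes exon 3 (left), and on the short one, which skips it (right), with 1 point per library. In wild-type OTS964 libraries the long transcript lies between 1.05 and 3.89, below every other group of each line, whereas the short transcript lies near or above the wild-type DMSO libraries.

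ATP5MC3 was the only subunit gene of 32 tested whose transcript usage passed in wild-type cells (adjusted p = 0.033), where 6.09% of all genes with several transcripts passed. The longest of its 3 transcripts, of 3293 bases, held 6.65% ± 2.71 of its reads in wild-type OTS964 libraries and 2.62% ± 2.74 in wild-type DMSO libraries (SD, n = 8 each), which overlapped. Without the libraries labelled DLD1 no subunit gene passed.

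In G579S cells no subunit gene of 82 passed the edgeR test of OTS964 against DMSO over the 4 lines, where 3.57% of all genes passed. None did in DESeq2 either, where 879 genes were higher and 905 lower of 13984 tested. By edgeR 5 had an unadjusted p below 0.05, which is given without the share of all genes. The median log2 fold change was 0.11, with 68 of 82 above 0, but it turned to -0.02 both with library totals and in TPM. ATP5F1B, which had the smallest p, was at 693.9 to 1398 CPM (median 1253) in G579S OTS964 libraries against 543.1 to 1411 CPM (median 1124) in G579S DMSO libraries, overlapping throughout, with a log2 fold change of 0.18 ± 0.07 (adjusted p = 0.14). The result turned on a single library: without replicate 2 of Cal51 G579S under DMSO, 33 subunit genes were higher and 0 lower, with a median of 0.21 and with 7.1% of all genes higher. Within lines, 18 of 82 were higher in DLD1 G579S cells with OTS964 and 0 lower, where 10.7% of all genes were higher and 12.7% lower, led by NDUFB3 (0.64 ± 0.17, adjusted p = 0.011). With library totals 1 was higher and 3 were lower there, and fewer were higher when any 1 of the 4 DLD1 G579S libraries was left out. The share of all genes is not given under those settings. None passed in the other lines, where the medians were 0.16 in A375, -0.36 in Cal51 and 0.33 in MDA-MB-231, and 0.654%, 0.355% and 0.306% of all genes passed. In Cal51 the result changed without DMSO replicate 1, which leaves the replicate that stands apart as the sole DMSO library, so no count is drawn from it.

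The response of wild-type cells exceeded that of G579S cells by the test of the difference itself. Of 82 subunit genes 74 had a higher response in wild-type cells and 1, NDUFV3, a lower one (-1.17 ± 0.27, adjusted p = 0.00062), where 23.9% of all genes had a higher and 25.9% a lower response. Without the DLD1 libraries of either genotype 75 were higher and 1 lower, with a median of 0.98. The median difference was 0.93, and 0.89 in complex I, 0.73 in complex II, 0.92 in complex III, 1.01 in complex IV and 0.96 in complex V. The 7 that did not pass included NDUFV2 (0.39 ± 0.16, adjusted p = 0.051), ATP5PB, COX7A1, COX7B2, NDUFC2-KCTD14 and ATP5MF-PTCD1. In TPM with limma the number with a higher response was 42, where 6.6% of 14318 genes had a higher response and 6309 genes a lower one.

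Other genes of the pathway did not all move with the subunits. For comparison, 29.3% of all genes tested were higher and 32% lower in wild-type cells after TMM scaling. Subunits outside the symbol rule rose with them in wild-type cells: COX4I1, the usual isoform of the largest nuclear complex IV subunit, by 1.21 ± 0.08, COXFA4 by 1.25 ± 0.08, NDUFAB1, the mitochondrial acyl carrier protein, by 1.04 ± 0.06, and the electron carrier cytochrome c, CYCS, by 1.21 ± 0.15 (adjusted p = 9.4e-09, 7.9e-09, 9.1e-09 and 8.4e-06), while COX4I2 was at 0 CPM in all libraries. Of 13 enzymes of the citric acid cycle 12 rose and 0 fell, with a median of 0.79, but 6 rose and 2 fell with library totals (median 0.21) and 2 rose and 4 fell in TPM (median -0.06). Malate dehydrogenase MDH2 rose by 1.08 ± 0.07 (adjusted p = 1.2e-08), and rose under all 3 scalings. Of 15 complex I assembly factors 11 rose and 0 fell, with a median of 0.78, against 6 rising and 1 falling with library totals (median 0.20) and 2 rising and 4 falling in TPM (median -0.07).

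Assembly factors of the other complexes were mixed, as were all genes tested, of which 29.3% rose and 32% fell after TMM scaling. The larger counts of all genes falling under the other scalings are given above. Whether these lists differed from all genes was not tested. For complex IV 11 of 21 rose and 4 fell, with a median of 0.35, which turned to -0.23 with library totals (6 rose, 8 fell) and -0.46 in TPM (1 rose, 13 fell). COX10, which makes the haem precursor of this complex, fell by 3.59 ± 0.28 (adjusted p = 6.2e-08). COX10 was at 0.475 to 4.45 CPM (median 2.2) in wild-type OTS964 libraries against 21.84 to 32.5 CPM (median 26.98) in wild-type DMSO libraries, with no overlap. SCO2, a copper chaperone of complex IV, fell by 1.30 ± 0.23 and TACO1, which promotes translation of a mitochondrially encoded subunit, by 1.24 ± 0.20 (adjusted p = 0.00021 and 7.8e-05). For complex II 2 of 4 rose and 1 fell, SDHAF2, which attaches the flavin to SDHA (-1.21 ± 0.16, adjusted p = 1.4e-05). For complex III 3 of 6 rose and 2 fell, and for complex V 3 of 4 rose and 1 fell, TMEM70 (-0.95 ± 0.16, adjusted p = 0.00014). The medians of these lists were 0.18, 0.38 and 0.72, against -0.40, -0.21 and 0.14 with library totals and -0.54, -0.45 and -0.12 in TPM. COX10, SCO2, TACO1, SDHAF2 and TMEM70 fell under all 3 scalings. Without the libraries labelled DLD1 the citric acid cycle had 12 higher and 0 lower, and the assembly factors 10 and 0 for complex I, 2 and 1 for complex II, 3 and 2 for complex III, 10 and 4 for complex IV and 3 and 1 for complex V.

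The regulators moved against the subunits. Of 14 genes for transcription factors, coactivators and proteins linked to mitochondrial transcription, 0 were higher and 12 lower in wild-type cells. Their median log2 fold change was -1.19, where 29.3% of all genes tested were higher and 32% lower. All 14 were also lower with library totals and in TPM, where the larger counts of all genes lower are given above. Without the libraries labelled DLD1 12 were lower, with a median of -1.35. NRF1 was at 1.52 to 10.12 CPM (median 5.88) in wild-type OTS964 libraries against 24.17 to 33.52 CPM (median 26.61) in wild-type DMSO libraries, without overlap, and fell by 2.18 ± 0.29 (adjusted p = 1.3e-05). PPRC1, a coactivator of the PGC-1 family, was at 0 to 18.15 CPM in wild-type OTS964 libraries against 109 to 158.8 CPM under DMSO, and fell by 3.61 ± 0.57 (adjusted p = 6.4e-05). The nuclear receptor ESRRA fell by 1.59 ± 0.29, the coactivator PPARGC1B by 1.58 ± 0.26, GABPA by 1.11 ± 0.21, its partner GABPB1 by 0.94 ± 0.30 and YY1 by 0.43 ± 0.15 (adjusted p = 0.00028, 9.8e-05, 0.00037, 0.015 and 0.026). Among the remaining genes of the list, the elongation factor TEFM fell by 2.52 ± 0.21, MTERF1 by 2.22 ± 0.45, TFB2M by 1.27 ± 0.16, TFB1M by 0.87 ± 0.25 and the polymerase POLRMT by 0.60 ± 0.10 (adjusted p = 1.4e-07, 0.00063, 1e-05, 0.0078 and 0.00012). TFAM (-0.11 ± 0.20, adjusted p = 0.66) and PPARGC1A (-0.88 ± 0.49, adjusted p = 0.13) did not pass. In G579S cells 1 of the 14 was higher, YY1 (0.28 ± 0.07, adjusted p = 0.044), and 1 lower, TEFM (-0.49 ± 0.12, adjusted p = 0.045), where 1.99% and 1.58% of all genes were. The difference between genotypes passed for 11 of the 14, all with a lower response in wild-type cells, where 25.9% of all genes had a lower response.

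**Figure D4:**
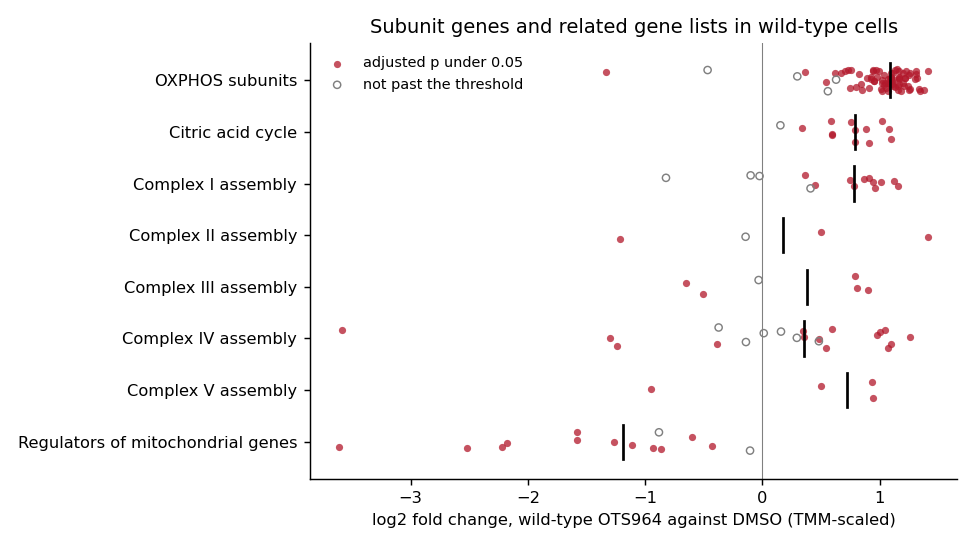
log2 fold change with OTS964 against DMSO in wild-type cells (horizontal axis, TMM-scaled) of the subunit genes and of the related gene lists, with 1 point per gene, filled where the adjusted p is under 0.05, and a black bar at the median. The subunit median of 1.08 and the citric acid cycle median of 0.79 lie above 0 and the regulator median of -1.19 lies below it.

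The motifs of these factors were looked for in the promoters, taken as 250 bases before to 50 after each gene's start (RefSeq, GRCh38.p14), for the 69 of the 86 genes in the promoter table and on both strands. The NRF1 motif, GCGC and TGCGC with any base between them, was in 17 (24.6%), against 6.3% of all 27305 promoters and 11.1% of the 11210 promoters of genes tested. The ETS motif CCGGAAG was in 19 (27.5%, against 10.7% of all and 18.3% of those of tested genes) and the YY1 motif AAGATGGC in 11 (15.9%, against 3% and 5%). In all, 38 promoters held at least 1 of them. The wild-type response had a median of 0.98 in genes with the NRF1 motif and 1.11 in those without, 1.15 and 1.03 with and without the ETS motif, and 1.02 and 1.09 with and without the YY1 motif. SDHB and SDHD of complex II and UQCRC1 of complex III are shown because together they hold all 3 motifs, and NDUFV3 because it is the gene that fell and none of these letters are in its window. Capitals mark the matches.
SDHB (chr1:17053983-17054282, minus strand): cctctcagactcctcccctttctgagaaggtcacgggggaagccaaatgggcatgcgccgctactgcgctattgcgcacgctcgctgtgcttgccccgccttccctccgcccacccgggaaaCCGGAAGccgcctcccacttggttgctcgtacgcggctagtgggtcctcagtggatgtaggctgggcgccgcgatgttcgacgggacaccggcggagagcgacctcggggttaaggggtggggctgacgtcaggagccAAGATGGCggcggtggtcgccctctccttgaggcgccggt
SDHD (chr11:112086623-112086922, plus strand): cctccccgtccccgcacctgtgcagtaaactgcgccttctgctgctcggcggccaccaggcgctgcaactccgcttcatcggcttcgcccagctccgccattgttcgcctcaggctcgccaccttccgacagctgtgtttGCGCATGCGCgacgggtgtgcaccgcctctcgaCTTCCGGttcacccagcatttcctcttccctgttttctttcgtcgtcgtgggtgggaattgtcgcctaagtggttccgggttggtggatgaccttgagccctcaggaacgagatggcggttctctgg
UQCRC1 (chr3:48609597-48609896, minus strand): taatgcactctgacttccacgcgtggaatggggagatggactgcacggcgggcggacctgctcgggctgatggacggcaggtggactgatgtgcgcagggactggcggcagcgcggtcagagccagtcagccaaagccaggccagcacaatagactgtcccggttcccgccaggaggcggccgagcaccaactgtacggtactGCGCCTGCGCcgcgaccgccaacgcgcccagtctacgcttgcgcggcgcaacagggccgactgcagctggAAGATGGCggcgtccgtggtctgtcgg
NDUFV3 (chr21:42893059-42893358, plus strand): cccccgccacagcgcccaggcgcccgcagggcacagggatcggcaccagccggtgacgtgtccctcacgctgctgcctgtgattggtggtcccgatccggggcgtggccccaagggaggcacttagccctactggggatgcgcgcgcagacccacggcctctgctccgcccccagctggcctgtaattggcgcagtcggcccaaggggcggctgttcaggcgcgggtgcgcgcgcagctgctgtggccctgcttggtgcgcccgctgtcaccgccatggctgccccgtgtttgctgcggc

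Transcript length moved with the response. The 80 subunit genes tested had a median transcript length of 806 bases, against 2963 bases for all genes tested. In wild-type cells the other genes under 600 bases had a median log2 fold change of 1.18 (158 genes), the same as the 24 subunit genes of that length. From 600 to under 1000 bases the medians were 1.09 for 26 subunit genes and 0.93 for 601 other genes. Of the 80 subunit genes 50 were under 1000 bases. Among the other genes 65.2% under 600 bases and 65.9% from 600 to under 1000 bases were called higher, falling to 16.9% at 4000 bases and over. From 1000 to under 1500 bases they were 0.91 for 11 subunit genes and 0.58 for 1237 others, and from 1500 to under 2500 bases 0.91 for 14 subunit genes and 0.16 for 3400 others. The 3 subunit genes of 2500 to under 4000 bases had a median of 1.08, against -0.21 for 3930 others, and the 2 of 4000 bases and over 0.96, against -0.54 for 4409 others. The 4 longer classes hold under 20 subunit genes each. The part of length in the response was not tested.

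**Figure D5:**
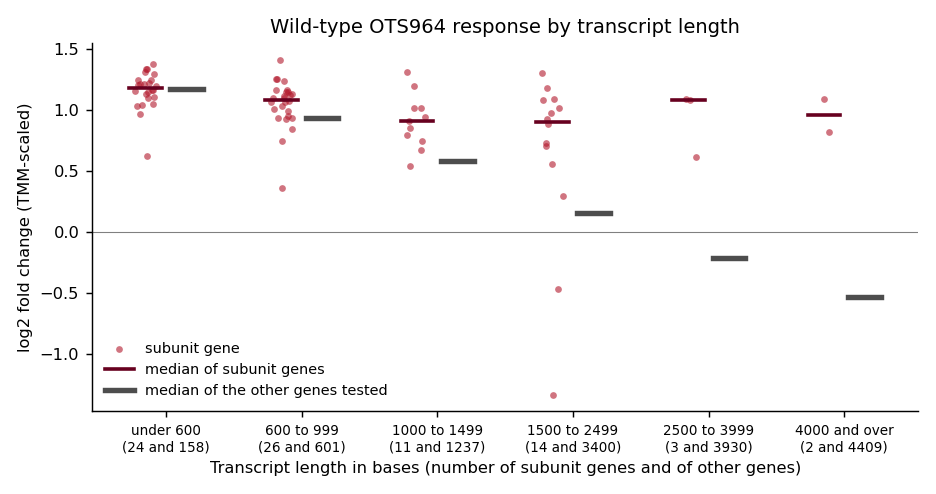
log2 fold change with OTS964 against DMSO in wild-type cells (vertical axis, TMM-scaled) by transcript length, with 1 point per subunit gene, a dark red bar at their median and a grey bar at the median of the other genes tested. Under 600 bases both medians are 1.18, and from 1500 to under 2500 bases they are 0.91 for subunit genes and 0.16 for other genes.

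The lines differed in their baseline level of the set. Among G579S cells under DMSO, each line set against the mean of the other 3, 66 of 82 subunit genes were higher and 0 lower in Cal51 (30.1% of all genes higher, 20.9% lower), with a median of 0.61. In MDA-MB-231 64 were lower and 4 higher (25.3% of all genes lower, 27.3% higher), with a median of -0.76. In A375 33 were higher and 15 lower (31.2% and 22.2% of all genes), and in DLD1 9 were higher and 17 lower (24% and 19.7%). Without replicate 2 of Cal51 fewer were higher there and some were lower, while in MDA-MB-231 most were lower whichever library was left out. The share of all genes is not given for those fits. By complex, MDA-MB-231 had 29 of 37 lower in complex I, 9 of 10 in complex III and 16 of 19 in complex V, but 2 lower and 2 higher of 4 in complex II.

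Single genes marked the lines. NDUFB9, an accessory subunit of the membrane arm of complex I, was at 84.8 and 83.61 TPM in MDA-MB-231 G579S DMSO libraries, against 521.2 and 521.3 TPM in A375, 297.3 and 352.3 TPM in Cal51 and 280.1 and 296 TPM in DLD1, and was lower in MDA-MB-231 by a log2 value of -2.43 ± 0.15 (adjusted p = 6.3e-11). NDUFS5 was at 288.1 and 260.5 TPM in DLD1 G579S DMSO libraries, against 619.7 and 609.8 TPM in A375, 785.8 and 859 TPM in Cal51 and 723 and 726 TPM in MDA-MB-231 (-1.42 ± 0.14, adjusted p = 3.7e-08). NDUFS5 reached 633.6 and 563.1 TPM under DMSO in the libraries labelled DLD1 wild-type. UQCRH was at 1667 and 1643 TPM in A375 G579S DMSO libraries, against 893.8 and 996.3 TPM in Cal51, 765.7 and 762.5 TPM in DLD1 and 466.2 and 371.9 TPM in MDA-MB-231 (1.57 ± 0.12, adjusted p = 7.2e-10). With 1611 and 1663 TPM of UQCRH, libraries labelled DLD1 wild-type did not lie with the DLD1 G579S libraries but near the A375 wild-type ones, at 1596 and 1586 TPM.

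Under DMSO, G579S and wild-type cells differed in no subunit gene over the 4 lines (0 of 82 in edgeR, where 2.85% of all genes passed; 7 higher in DESeq2, where 5.3% of all genes were higher), with a median of 0.14 and none passed without the DLD1 libraries of either genotype. Within lines the counts were 3 higher and 1 lower of 82 in A375 (4.35% and 5.37% of all genes), 35 higher and 0 lower in Cal51 (10.1% and 6.85%), and 0 higher and 4 lower in MDA-MB-231 (2.66% and 4.72%). The Cal51 count rested on replicate 2 of its G579S DMSO libraries, without which fewer were higher, with the share of all genes not given. In MDA-MB-231 0 to 1 were lower when any 1 of its 4 DMSO libraries was left out. For the libraries labelled DLD1, 21 were higher and 20 lower, near the 22.4% and 26.6% of all genes.

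The clearest of these was SDHD in A375. It was at 44.55 and 48.45 TPM in A375 G579S DMSO libraries, against 107.2 and 104.6 TPM in A375 wild-type DMSO libraries (-1.11 ± 0.12, adjusted p = 3.6e-06). Under OTS964 it was at 40.09 and 43.39 TPM in A375 G579S libraries, against 93.84 and 94.62 TPM in A375 wild-type libraries. The lowest library of the other lines had 88.13 TPM. In A375 ATP5F1E (1.02 ± 0.20, adjusted p = 0.0022), ATP5MF (0.92 ± 0.20, adjusted p = 0.0035) and NDUFA11 (0.77 ± 0.19, adjusted p = 0.014) were higher in G579S cells. These counts of 82 were not above the shares of all genes in this contrast, 4.35% higher and 5.37% lower. Not all of the genes called higher still passed when any 1 of the 4 A375 DMSO libraries was left out.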

How the data were processed

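RNA-seq made with a SMARTer mRNA kit, per the labels' protocols, was deposited as 1 table of transcripts per library for 32 libraries, grouped by their titles. Per the file headers, the authors deposited estimated counts, which are not whole numbers and not normalized, TPM values, which they scaled to transcript length and library total, and transcript lengths. Neither the quantification tool nor the human annotation was named in the sources used here. The only builds in the submitters' processing notes are GRCm38 and mm10, both of mouse, although 42587 of 87398 identifiers (48.7%) matched human genes. Unmatched transcripts stayed out of library sizes and tests, so results hold for matched reads.

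Estimated counts were summed to 18854 genes and rounded. The test was edgeR's quasi-likelihood F test (version 4.0.16, R 4.3.3) after TMM scaling and filterByExpr by group, with p-values adjusted by Benjamini-Hochberg over all genes tested and a threshold of 0.05. Line was a block in the fits over lines, and values within lines came from 1 fit of 16 groups with 16 residual degrees of freedom. Alternatives were library totals, RLE factors, DESeq2 1.42.0, no filter, limma 3.58.1 on log2(TPM + 1), which understates changes of low genes, and left-out libraries. The scripts were tested on simulated data. Precision is limited by 2 libraries per group, and intervals from counts would cover counting error only.

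The members, the related lists and the motifs were chosen with earlier results of these data known. Genes named with values were the core subunits, the most abundant and the most and least changed of each complex, those that did not pass or fell, isoform sets and the related lists. The NDUFV3 tests of single transcripts and of the share, the counts of the related lists under other scalings or without the libraries labelled DLD1, and the count without both these and 1 MDA-MB-231 library, were added after seeing the data, and NDUFB9, NDUFS5 and UQCRH as line examples were chosen after their values were seen. Some items are not reported here.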

Additional observations from a re-analysis of the deposited data

Results flagged for a closer look

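The response to OTS964 differed between genotypes by its own test for 74 subunit genes with a higher and 1 with a lower response in wild-type than in G579S cells, all from 1 edgeR fit of 32 libraries. NDUFV3 is listed because its wild-type response differed from the mean of the other lines in each line, by -1.17 (log2) in A375, 1.04 in Cal51, -1.09 in the libraries labelled DLD1 and 1.22 in MDA-MB-231 (edgeR, adjusted p = 0.0013, 0.00074, 0.0018 and 6.2e-05). These values are linked, since each line enters the mean for the others, and are not separate results. In Cal51 the wild-type response also differed for NDUFV2, by -0.75, and for UQCRFS1, by 0.44 (adjusted p = 0.01 and 0.031).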

How the results depend on the processing

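Some values moved with the scaling or the test used. Counts within or between lines are of subunit genes without the share of all genes. Such counts cannot separate a change in these genes from a shift in all calls. With library totals the wild-type response had 2 subunit genes lower and a median of 0.5, where 6801 of 13676 genes were lower. The G579S response had 1 lower, where 732 of 13984 genes were. The difference of responses had a median of 0.505, against -0.425 for all genes. Within lines, totals gave 42 higher in A375 wild-type, 2 lower in Cal51 wild-type, 1 higher and 3 lower in DLD1 G579S, 2 lower for G579S against wild-type in A375, 14 higher for the DLD1 line and 2 called for the MDA-MB-231 response against other lines. In TPM 6 were lower with a median of 0.222 in wild-type cells, where 8295 of 13676 genes were lower. In G579S cells 4 were lower in TPM, where 953 of 13984 genes were. The difference of responses in TPM had 42 higher, 3 lower and a median of 0.24, where 6.6% of 14318 genes were higher and 6309 genes lower. For G579S against wild-type under DMSO, TPM gave 3 higher and 1 lower, where 175 genes were higher and 314 lower of 14061. DESeq2 gave 7 higher there, with 5.3% of all genes higher. With library totals the log2 fold change turned to -0.04 for UQCRFS1, -0.29 for ATP5PB and -0.22 for NDUFV2. In TPM it turned to -0.22 for NDUFS1, -0.14 for SDHA, -0.3 for UQCRFS1, -0.17 for SDHD, -0.13 for COX7B2, -0.45 for ATP5PB, -0.05 for COX7A2L, -0.1 for NDUFA6 and -0.49 for NDUFV2. The cause was not tested.

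Leaving out single libraries gave these ranges, without the share of all genes except where it is stated. In wild-type cells 74 to 76 were higher and 1 was lower, with medians of 1.053 to 1.094, where 27.1% to 30.4% of all genes were higher. In G579S cells 0 to 33 were higher, the 33 without replicate 2 of Cal51 under DMSO, where 7.1% of all genes were higher. The difference of responses had 74 to 75 higher, where 22.5% to 24.2% of all genes were. For the genotypes under DMSO over lines, the share of all genes higher was 0.3% to 1.5%. G579S against wild-type under DMSO had 0 to 2 higher over lines, 6 to 70 higher in Cal51 and 0 to 1 lower in MDA-MB-231. Among G579S lines under DMSO, A375 had 8 to 20 lower, Cal51 35 to 75 higher and 0 to 3 lower, DLD1 6 to 21 higher and 8 to 32 lower, and MDA-MB-231 4 to 7 higher. Within-line responses had 0 to 1 higher and 0 to 64 lower in Cal51 G579S, 3 to 8 higher in DLD1 G579S, 1 to 2 lower in wild-type libraries labelled DLD1 and 0 to 1 lower in MDA-MB-231 wild-type. Responses against other lines had 1 to 2 called in Cal51 and 1 to 13 in MDA-MB-231, the 13 without OTS964 replicate 2. Between 11 and 13 regulators were lower. ATP5PB ranged between -0.15, without A375 wild-type OTS964 replicate 1, and 0.46. TFAM ranged between -0.21 and 0.06, the last without MDA-MB-231 wild-type OTS964 replicate 1, and turned to 0.05 without that library and those labelled DLD1. Without the libraries labelled DLD1, 0 subunit genes passed in transcript usage. NDUFV2 lost its wild-type call there (adjusted p = 0.11).

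Same-numbered libraries did not deviate together (correlations of -0.043 to 0.067), so the numbers were not taken as pairs. With the replicate block, 75 subunit genes were higher and 1 lower in wild-type cells, 74 and 1 in the difference of responses, 0 in G579S cells and 0 between genotypes, where the block left 0 calls among all genes, with wild-type, G579S, difference and genotype medians of 1.077, 0.121, 0.911 and 0.131. Of 62 named results 42 kept direction and call under every alternative run for them.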
